A study of Mus musculus with 4 samples.

Results

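The 49 genes described here encode the machinery that copies DNA in S phase and the factors that switch it on at the G1/S boundary. They were listed by function in 8 groups, which cover origin licensing, origin firing and the replicative helicase, the sliding clamp with its loader and replication protein A, the DNA polymerases and primase, Okazaki fragment maturation, nucleotide synthesis, E2f factors with the E cyclins, and chromatin maintenance at the fork. A probe was matched to 47 of the 49, out of 18749 genes with a matched probe on the array, and Rpa1 and Rrm2 were not analysed here. All 47 were well above background on all 4 arrays, and none was saturated.

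Before DNA can be copied, the Mcm2 to Mcm7 ring is loaded onto origins by Cdc6 and Cdt1, a step called licensing, and Cdc45 and the GINS complex then turn the ring into an active helicase. Many of the genes involved are transcribed together at G1/S by E2f factors, which pocket proteins such as Rb1 hold in check and which cyclin E kinase activity helps to release. In T cells this programme is started by antigen receptor signals with co-stimulation and is kept up by IL-2, so that activated T cells divide rapidly in culture.

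The cells were T helper (Th) cells grown from naive splenic CD4 T cells (CD44low CD62Lhigh CD25negative) of C57BL/6J mice. WT cells were compared with cells labelled Bach2 KO, which carried Bach2 flox/flox alleles and a CD4-Cre transgene, so that Cre was driven by the Cd4 promoter and acted in T-lineage cells. The study describes its WT controls as CD4-Cre mice. Bach2 is a transcriptional repressor of the basic leucine zipper family. All cultures were activated for 2 days with immobilized anti-TCR-β antibody at 3 μg/ml and anti-CD28 antibody at 1 μg/ml, then kept for 3 further days with cytokine, which per the labels was IL-2 at 2.5 ng/ml, while the study's methods give another concentration for its IL-2 cultures. Each genotype was measured in 2 states, before re-stimulation and after 4 h of re-stimulation on immobilized anti-TCR-β antibody with no added IL-2. The removal of IL-2 and the new receptor signal therefore came together and cannot be told apart.

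Each of the 4 conditions was measured on 1 one-colour Agilent array. There was thus no replicate error and no test, and every difference below is a difference between 2 arrays. Levels are given as scaled signals, in which 1 equals the 75th percentile of all probes on that array (a raw signal between 312.6 and 436.2), and differences as folds or log2 differences of these levels. The scanner's own error estimate was 10% of the signal for a typical member, which came to 0.204 on the log2 scale for a difference. It was nearly the same for every member (0.204 to 0.207). As an estimate from single arrays, it holds no variation between cultures or mice. Probes of the same gene differed by a median SD of 0.088 to 0.151 in log2 difference over 3852 genes, depending on the comparison. A difference of at least 2-fold was counted as a large one.

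Several measurements bear on the labels. The Bach2 probe had a scaled signal of 6.72 in WT and 6.07 in cells labelled Bach2 KO before re-stimulation, and of 10.6 and 8.73 after it, which is 1.11- and 1.21-fold lower. Where this probe lies relative to the deleted part is not given in the sources used here, so its level does not check the label. All samples were labelled female. However, 3 of 4 Y-linked genes passed the background limit on the arrays labelled Bach2 KO and none did on the WT arrays, with a summed signal of 1696 and 1458 against 17.5 and 18.2. Xist, the RNA of the inactive X chromosome, passed the background limit on every array, and was 2.05- and 2.28-fold lower in cells labelled Bach2 KO, with scaled signals of 10.65 and 7.33 against 21.8 and 16.7. The study's methods state that mice of both sexes served for its in vitro work. Sex and genotype cannot be told apart on these arrays. Of 7 mast cell and basophil markers with a probe, 5 were well above background on each array labelled Bach2 KO, against 2 and 1 on the WT arrays before and after re-stimulation. The summed signal of these markers was 1255 and 1713 against 193 and 306.2, and Ms4a2 and Mcpt4 were not above background on any array. All 7 T cell markers were well above background on every array. The part of these differences in the results was not tested. In bulk RNA, moreover, fewer cells in S phase and less RNA per cell cannot be told apart.

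The replication genes were lower after re-stimulation than before it in both genotypes. The median log2 difference over the 47 members was -0.93 in WT (quartiles -1.16 and -0.48) and -0.91 in cells labelled Bach2 KO (quartiles -1.11 and -0.62), while the median over all genes was -0.01 and 0.01. In each genotype 45 of the 47 were below 0, and 44 were so in both. At least 2-fold lower were 19 members in WT, or 40.4%, and 20 in cells labelled Bach2 KO, or 42.6%. Over all genes measured the same share was 13.5% in WT and 13% in cells labelled Bach2 KO. No member was at least 2-fold higher, against 13.2% and 12.4% of all genes. At a lower limit of 1.5-fold, 33 and 37 members were lower, against 25.4% and 23.9% of all genes. The members past 2-fold were the same in part, with 17 past it in both genotypes, 22 in either and 25 in neither. This overlap was not counted over all genes, so it is not read as a trait of the members. Over all genes well above background on every array the responses of the genotypes were also alike (Pearson's r 0.899).

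The size of this shift depended on how the arrays were scaled. Among all genes past 2-fold, 49.3% were higher after re-stimulation in WT and 48.9% in cells labelled Bach2 KO. With each array scaled to its median the shares were 29.1% and 30.8%, and with scaling to the Cd3e probe they were 71.5% and 67.7%. The median over all genes moved by -0.30 and -0.27 on the log2 scale under the former and by 0.30 and 0.26 under the latter. These scalings add a constant to every gene of an array, so they leave the members' place among the other genes as it was. The members' median minus that of all genes was -0.925 in WT and -0.92 in cells labelled Bach2 KO, with 45 of 47 members below the median of all genes in each. Quantile normalization, which is no constant shift, gave -0.891 and -0.895, with 43 and 45 members below that median, and normexp with quantile normalization gave -0.885 and -0.877, again with 43 and 45. Scaling to the median put 47 members below 0 in each genotype, and scaling to Cd3e 41 and 42.

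**Figure D1:**
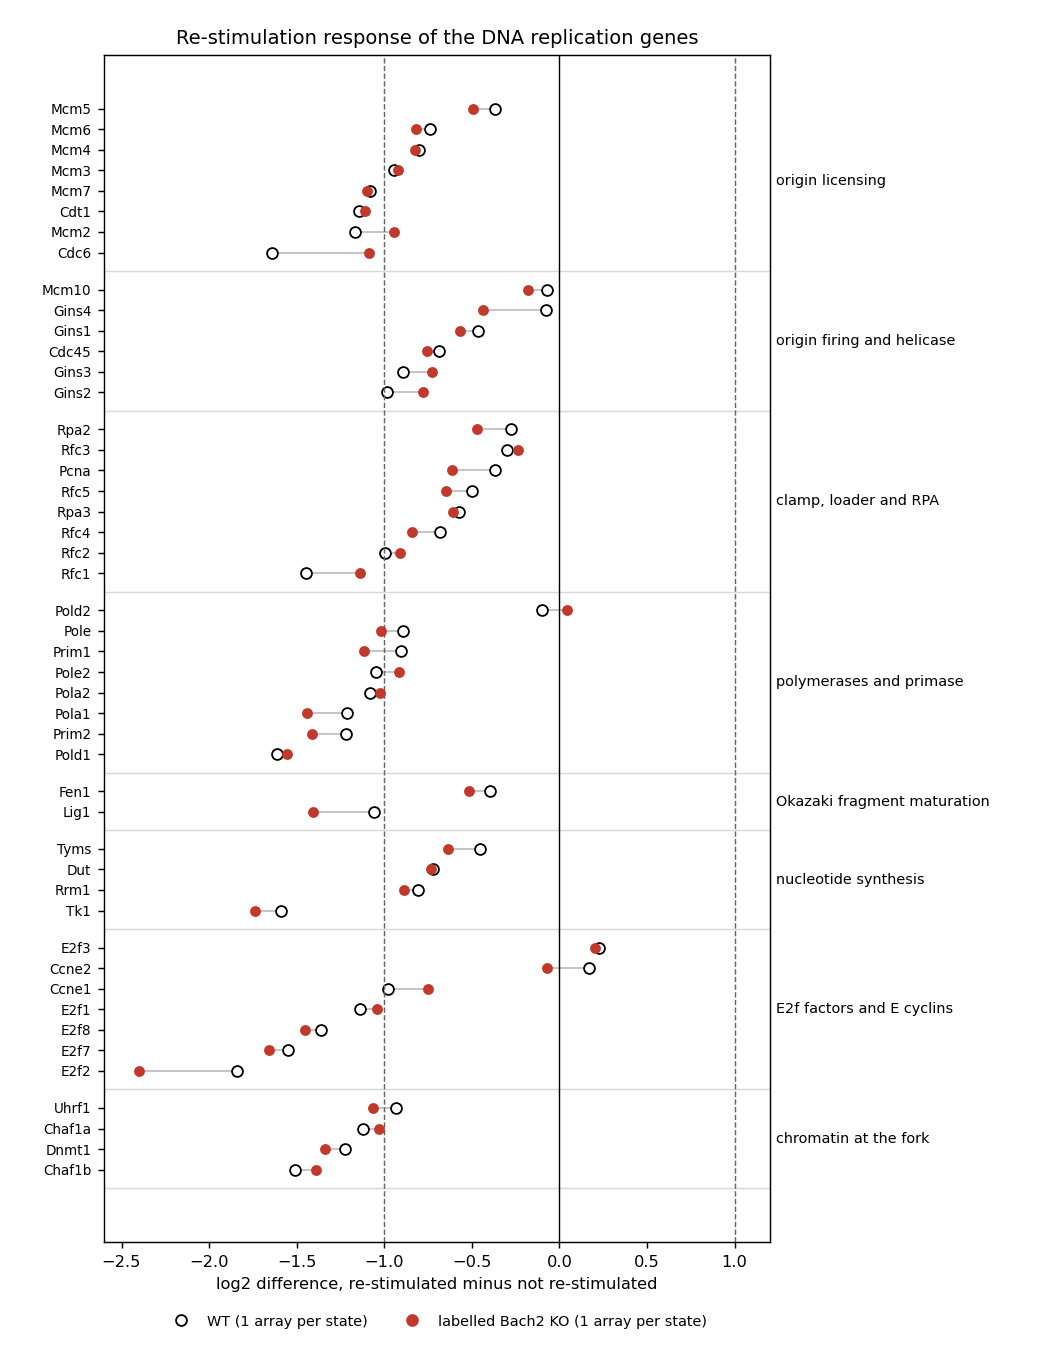
Log2 difference of each of the 47 members between re-stimulated and not re-stimulated cells (x axis), by function (rows), with open points for WT, filled points for cells labelled Bach2 KO, and dashed lines at a 2-fold difference. Each point is the difference of 2 arrays, and 45 of 47 members lie below 0 in each genotype.

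For several of these genes the promoter carries the sequence that E2f factors are known to bind. Of the 49 members, 41 had an entry in the RefSeq promoter table (mouse GRCm38.p6), which covers 250 bases before to 50 bases after each transcript start. An E2F motif, spelled TTTCCCGC, TTTCGCGC, TTTGCCGC or TTTGGCGC and searched on both strands, was present in 17 of the 41, or 41.5%. The share was 2.6% over the promoters of all 27025 genes in the table and 4.47% over the 10385 of them that were measured. In the bases before the start alone, 11 members held a match (26.8%), against 2.16% and 3.71%. The stretches around these matches are shown for the licensing genes and for a polymerase and an E2f gene, with the matches in capitals and all bases lying before the start. Those of Cdc6 (chr11:98907993-98908040), Mcm5 (chr8:75109336-75109387) and E2f7 (chr10:110745221-110745268) are from the plus strand, and those of Mcm6 (chr1:128359725-128359835), Mcm7 (chr5:138172021-138172068) and Pola1 (chrX:93632266-93632313) from the minus strand, each written 5′ to 3′ along the gene.
Cdc6: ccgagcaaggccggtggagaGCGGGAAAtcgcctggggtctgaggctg
Mcm5: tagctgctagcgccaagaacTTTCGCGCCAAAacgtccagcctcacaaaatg
Mcm6: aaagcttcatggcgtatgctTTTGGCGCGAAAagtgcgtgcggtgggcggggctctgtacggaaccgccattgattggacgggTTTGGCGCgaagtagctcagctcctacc
Mcm7: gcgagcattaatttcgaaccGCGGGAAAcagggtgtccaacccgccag
Pola1: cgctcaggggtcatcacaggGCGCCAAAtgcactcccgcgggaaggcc
E2f7: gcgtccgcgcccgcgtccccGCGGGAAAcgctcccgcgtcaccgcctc
In Mcm5 and at the upstream end of Mcm6 a pair of matches on opposite strands overlap, so that the capitals there run on. A match is a run of letters and no measured binding site.

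The licensing genes were lower after re-stimulation in all 8 cases, with a median log2 difference of -1.01 in WT and -0.93 in cells labelled Bach2 KO. Cdc6, the loader of the Mcm ring, had a scaled signal of 2.65 in WT and 2.71 in cells labelled Bach2 KO before re-stimulation, and of 0.849 and 1.28 after it. It was 3.12-fold lower in WT and 2.13-fold lower in cells labelled Bach2 KO, which was the member whose response in cells labelled Bach2 KO was most reduced against WT. Its second probe gave log2 differences of -1.94 and -1.46, so both probes placed the larger difference in WT. Cdt1, the partner of Cdc6 in loading, was at 45.3 and 44 before and at 20.5 and 20.4 after, in WT and in cells labelled Bach2 KO. The genotypes hardly differed in either state, and the response was 2.21- and 2.16-fold.

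Within the Mcm ring, whose subunits act as 1 hexamer, the differences were unequal. Mcm2 went from 8.17 to 3.64 in WT (2.24-fold lower) and from 8.04 to 4.17 in cells labelled Bach2 KO (1.93-fold lower). Mcm7 went from 55.1 to 26.1 in WT and from 50.6 to 23.7 in cells labelled Bach2 KO, or 2.11- and 2.14-fold lower. These were the only Mcm subunits past 2-fold in either genotype, with Mcm2 so in WT alone. Mcm3, Mcm4 and Mcm6 were between 1.67- and 1.92-fold lower in WT and between 1.77- and 1.89-fold lower in cells labelled Bach2 KO. Mcm5 had the smallest range over the arrays, from 37.1 to 28.7 in WT and from 43.2 to 30.7 in cells labelled Bach2 KO, or 1.29- and 1.41-fold lower. The promoter of Mcm5 held the overlapping pair of E2F matches shown above, and that of Mcm2 held none. Those of Mcm3, Mcm6 and Mcm7 also held matches, with Mcm7 past 2-fold in both genotypes. The medians of all members with and without a match are given below.

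The helicase activators changed less. None of the 6 was 2-fold lower in either genotype, against 13.5% and 13% of all genes, but 2 and 2 were with scaling to the median. Their median log2 difference was -0.58 in WT and -0.65 in cells labelled Bach2 KO. Gins2, a GINS subunit, went from 6.72 to 3.4 in WT and from 6.57 to 3.83 in cells labelled Bach2 KO, or 1.98- and 1.72-fold lower, and thus stood just outside the 2-fold limit in WT. Cdc45, Gins1 and Gins3 were between 1.38- and 1.86-fold lower in WT, while Gins4 was 1.06-fold lower in WT and 1.36-fold lower in cells labelled Bach2 KO. Mcm10, which helps to activate the loaded helicase, stayed near one level on all arrays, at 21.0 and 20.03 in WT before and after and at 21.0 and 18.6 in cells labelled Bach2 KO. The differences of Mcm10 in both genotypes lay within the scanner's error.

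Of the clamp, its loader and replication protein A, 8 members were read. Rfc1 alone was past 2-fold, or 12.5% in each genotype, near the 13.5% and 13% of all genes. With scaling to the median 2 and 3 were past it, and with scaling to Cd3e 1 and 0. Rfc1, the large subunit of the clamp loader, went from 13.5 to 4.94 in WT (2.73-fold lower) and from 11.5 to 5.21 in cells labelled Bach2 KO (2.2-fold lower). Rfc2, a small subunit of the same loader, was 1.998-fold lower in WT and so just missed the limit. Rfc3 had the smallest range of the group, at 2.21 in WT and 2.21 in cells labelled Bach2 KO before and at 1.79 and 1.88 after, or 1.23- and 1.18-fold lower. Pcna, the sliding clamp itself, was 1.29-fold lower in WT and 1.53-fold lower in cells labelled Bach2 KO. The other loader subunits Rfc4 and Rfc5 and the single-strand binding subunits Rpa2 and Rpa3 were between 1.21- and 1.6-fold lower in WT and between 1.38- and 1.79-fold lower in cells labelled Bach2 KO. The subunits of 1 loader thus differed among themselves by more than the scanner's error.

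The polymerases and primase had a median log2 difference of -1.06 in WT and -1.07 in cells labelled Bach2 KO. Past 2-fold were 5 and 6 of 8, against 13.5% and 13% of all genes. With scaling to the median 7 and 7 were past it, and with scaling to Cd3e 1 and 3. Pold1, the catalytic subunit of polymerase delta, went from 63.3 to 20.7 in WT (3.05-fold lower) and from 50.9 to 17.3 in cells labelled Bach2 KO (2.95-fold lower). Pold2, an accessory subunit of the same polymerase, was at 4.91 and 4.58 in WT before and after, and at 4.44 and 4.57 in cells labelled Bach2 KO. The delta subunits therefore stood at opposite ends of the group, Pold1 with the largest difference in WT and Pold2 within the scanner's error.

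Polymerase alpha starts each new strand together with primase. Pola1, its catalytic subunit, went from 5 to 2.16 in WT and from 4.42 to 1.63 in cells labelled Bach2 KO, or 2.32- and 2.71-fold lower. Pola2, its accessory subunit, went from 1.35 to 0.635 in WT and from 1.22 to 0.598 in cells labelled Bach2 KO, or 2.12- and 2.03-fold lower. Both subunits were therefore past 2-fold in both genotypes. Prim1, the catalytic subunit of primase, went from 22.1 to 11.8 in WT (1.87-fold lower) and from 20.3 to 9.37 in cells labelled Bach2 KO (2.17-fold lower). Polymerase epsilon copies the leading strand, and its subunits lay on either side of the limit. Pole was 1.86-fold lower in WT (17.9 to 9.65) and 2.02-fold lower in cells labelled Bach2 KO (15.5 to 7.65). Pole2 was 2.07-fold lower in WT (2.52 to 1.22) and 1.89-fold lower in cells labelled Bach2 KO (1.77 to 0.939). Values this close to 2-fold are separated from it by less than the scanner's error.

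Okazaki fragments are trimmed by the nuclease Fen1 and joined by DNA ligase I. Lig1 went from 60.5 to 29.1 in WT (2.08-fold lower) and from 62.9 to 23.8 in cells labelled Bach2 KO (2.65-fold lower), whereas Fen1 went from 6.59 to 5.01 and from 6.5 to 4.56, or 1.32- and 1.43-fold lower. Among the 4 genes of nucleotide synthesis, Tk1, the cytosolic thymidine kinase, was at 28.2 and 28.9 before re-stimulation in WT and in cells labelled Bach2 KO, and at 9.35 and 8.69 after it. Tk1 was 3.01-fold lower in WT and 3.33-fold lower in cells labelled Bach2 KO. Tyms, thymidylate synthase, went from 30.0 to 21.9 in WT and from 31.3 to 20.2 in cells labelled Bach2 KO, or 1.37- and 1.55-fold lower. Rrm1 and Dut lay between them, at 1.75- and 1.65-fold lower in WT.

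The chromatin genes had the narrowest range of responses among the 8 groups in both genotypes. All 4 were lower, with median log2 differences of -1.17 and -1.20. Past 2-fold were 3 of them in WT and 4 in cells labelled Bach2 KO, against 13.5% and 13% of all genes. With scaling to the median 4 and 4 were past it, and with scaling to Cd3e 1 and 2. Chaf1b, a subunit of the chromatin assembly factor that places histones behind the fork, went from 31.3 to 11.0 in WT (2.85-fold lower) and from 31.4 to 12.0 in cells labelled Bach2 KO (2.62-fold lower). Chaf1a, its partner, went from 14.4 to 6.62 and from 14.1 to 6.89, or 2.18- and 2.04-fold lower. The maintenance DNA methyltransferase Dnmt1 went from 14.9 to 6.36 in WT and from 12.9 to 5.11 in cells labelled Bach2 KO, or 2.34- and 2.53-fold lower. Uhrf1, which brings Dnmt1 to newly copied DNA, went from 13.3 to 6.97 and from 13.3 to 6.34, or 1.91- and 2.09-fold lower.

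The E2f factors and E cyclins held both the lowest and the highest log2 differences of all members. E2f2, an activator of the family, went from 45.2 to 12.6 in WT (3.58-fold lower) and from 39.8 to 7.55 in cells labelled Bach2 KO (5.27-fold lower). This was the largest difference of any member in each genotype, and 2.74% of all genes in WT and 0.783% in cells labelled Bach2 KO were as low or lower. The activator E2f1 went from 2.9 to 1.32 in WT (2.2-fold lower) and from 3.14 to 1.53 in cells labelled Bach2 KO (2.06-fold lower). Thus 2 activators of the family were past 2-fold in both genotypes.

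The atypical family members E2f7 and E2f8 repress E2f targets. E2f7 went from 3.94 to 1.35 in WT and from 3.56 to 1.13 in cells labelled Bach2 KO, or 2.93- and 3.16-fold lower. E2f8 went from 1.72 to 0.669 and from 1.73 to 0.631, or 2.57- and 2.74-fold lower. Both activating and repressing E2f genes were thus lower after re-stimulation. E2f3, the remaining activator, was the exception, at 4.42 and 5.17 in WT before and after and at 4.74 and 5.46 in cells labelled Bach2 KO, or 1.17- and 1.15-fold higher. All 3 of its probes were higher after re-stimulation in both genotypes, with log2 differences of 0.20 to 0.56, but with the arrays scaled to their medians the brightest one was below 0, as were all 47 members.

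Cyclin E binds Cdk2 at G1/S, and its 2 genes differed. Ccne1 was at 30.8 in WT and 38.4 in cells labelled Bach2 KO before re-stimulation and at 15.6 and 22.9 after it. The response of Ccne1 was 1.97-fold lower in WT and 1.68-fold lower in cells labelled Bach2 KO, and its second probe gave nearly the same log2 differences, -0.98 and -0.75. Ccne2 was near one level throughout, at 0.673 and 0.756 in WT before and after and at 0.771 and 0.734 in cells labelled Bach2 KO. The members that were not lower in at least 1 genotype were E2f3, Ccne2 and Pold2.

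**Figure D2:**
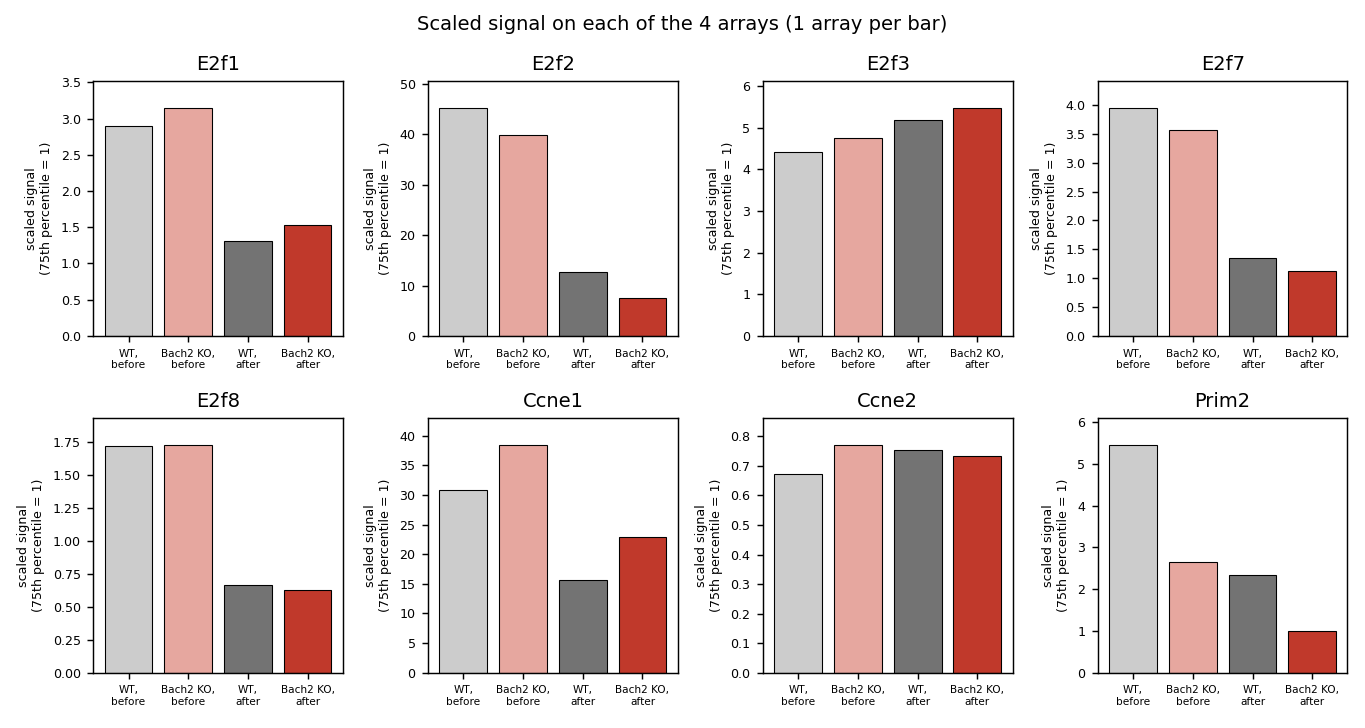
Scaled signal (y axis, 75th percentile of each array set to 1, each panel with its own scale from 0) of the E2f factors, the E cyclins and Prim2 on each of the 4 arrays, 1 array per bar, with light bars before and dark bars after re-stimulation. E2f1, E2f2, E2f7, E2f8, Ccne1 and Prim2 were lower after re-stimulation in both genotypes, E2f3 was 1.17- and 1.15-fold higher (but below 0 with the arrays scaled to their medians), and Ccne2 stayed between 0.673 and 0.771.

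The responses of the genotypes resembled each other across the members. These comparisons share no array. Over the 47 members Pearson's r between the log2 differences in WT and in cells labelled Bach2 KO was 0.924 and Spearman's rho was 0.938, and over the 10807 genes that passed the background limit on every array they were 0.899 and 0.89. These are correlations across genes, which are not independent replicates. The log2 difference in cells labelled Bach2 KO minus that in WT had a median of -0.08, with 17 members above 0 and 30 below. It reached 0.5 in size for 2 of 47 members, E2f2 (-0.558) and Cdc6 (0.555), and for 2422 of 11815 genes overall. With 1 array per condition the difference of these responses was not tested.

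Between the genotypes the replication genes differed little. The median log2 difference of cells labelled Bach2 KO to WT was -0.04 before re-stimulation (quartiles -0.15 and 0.02) and -0.11 after it (quartiles -0.28 and 0.06), against 0.00 (-0.003) and 0.02 over all genes. Members below 0 numbered 31 and 33 of 47, but 15 and 25 with scaling to Cd3e, so the sign of these small differences rested on the scaling. No member was at least 2-fold higher in either state, against 5.26% of all genes before and 5.17% after. At least 2-fold lower was 1 member in each state, or 2.13%, against 2.82% of all genes before and 3.86% after. All members were well above background on both arrays of a comparison. Among genes for which this held, 1.96% before and 3.26% after were at least 2-fold lower. At least 2-fold higher were 424 of these 11285 genes before and 434 of 11280 after. Before re-stimulation 9 of 47 members differed by more than the scanner's error, 7 lower and 2 higher, while 23.5% of all genes were lower and 25.3% higher by more than 0.204. After it there were 19, 16 lower and 3 higher, against 25.7% and 29.1% of all genes. For all genes the limit of 0.204 was the typical error of a member, not each gene's own error. At least 1.5-fold higher after re-stimulation was Cdc6, against 10.8% of all genes, and at least 1.5-fold lower were Prim2 and E2f2, against 9.17%.

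The member past 2-fold was Prim2, the regulatory subunit of primase, in both states. Its raw signal was 2379 in WT and 1153 in cells labelled Bach2 KO before re-stimulation, and 731.5 and 352.5 after it, or 5.45, 2.66, 2.34 and 1.0 (0.9996) as scaled signals. Prim2 was thus 2.05-fold lower before and 2.34-fold lower after re-stimulation, and the arrays labelled Bach2 KO were lower in both states. As low or lower were 2.62% and 2.51% of all genes. Prim2 was read from a single probe, so that no second probe bears on it. Under the alternatives its log2 difference ranged from -1.10 to -0.90 before and from -1.26 to -1.10 after. After re-stimulation Prim2 was 2.33-fold lower in WT and 2.66-fold lower in cells labelled Bach2 KO.

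All 8 polymerase and primase genes were below 0 in cells labelled Bach2 KO in both states, against 50.4% and 48.08% of all genes. Their medians were -0.20 before and -0.33 after, and with scaling to Cd3e 7 and 6 of them were below 0. The differences of Pola1, Pola2, Pold2 and Prim1 before, and of Pola2 and Pold2 after, lay within the scanner's error. Besides Prim2, Pole2 was 1.42-fold lower before and 1.3-fold lower after, and Pola1 was 1.13- and 1.33-fold lower. Pold1 was 1.24- and 1.2-fold lower, and its second probe gave log2 differences of -0.26 and -0.25. In the clamp group Rfc4, a clamp loader subunit, was 1.25- and 1.4-fold lower. The licensing genes were split evenly, 4 above and 4 below 0 in each state, and 7 and 6 of 8 were above 0 with scaling to Cd3e.

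The genotype difference of 3 regulators was larger after re-stimulation than before it, which was not particular to them. On the log2 scale Gins4 went from 0.041 to -0.32, Lig1 from 0.055 to -0.292 and Pcna from -0.067 to -0.31. For other members, such as Mcm5 and Pole2, the difference was smaller after it. E2f2, read from 1 probe, was 1.14-fold lower before and 1.67-fold lower after in cells labelled Bach2 KO. Cdc6 was 1.022-fold higher before and 1.502-fold higher after, and its second probe gave log2 differences of -0.16 and 0.32. Ccne1 was 1.25- and 1.46-fold higher, with log2 differences of 0.37 and 0.60 at its second probe. E2f2 and Cdc6 thus differed in opposite directions between the genotypes after re-stimulation, although both were lower than before it. The genotype differences of the states, measured on separate pairs of arrays, had a Pearson's r of 0.756 and a Spearman's rho of 0.616 across the 47 members. Without Prim2 they were 0.612 and 0.59 over 46 members. Over the same 10807 genes they were 0.616 and 0.491.

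**Figure D3:**
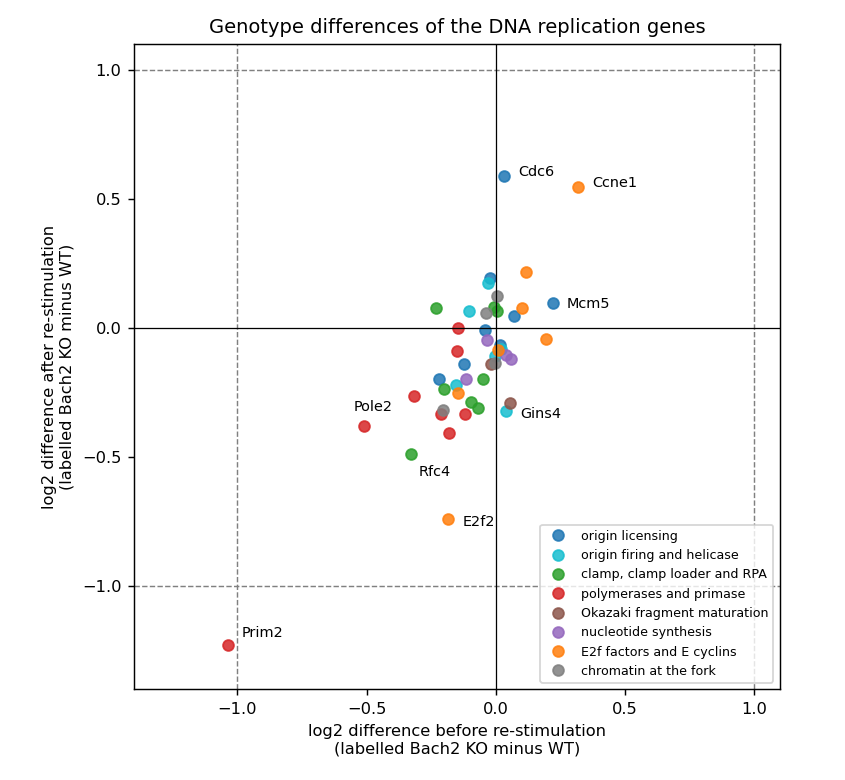
Log2 difference of cells labelled Bach2 KO to WT before (x axis) and after re-stimulation (y axis) for the 47 members, coloured by function, with dashed lines at a 2-fold difference. Prim2 lies past 2-fold in both states, and Cdc6, Ccne1 and E2f2 lie away from the rest on the y axis.

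Other genes of DNA replication were read from a further list of 44. Their median log2 difference on re-stimulation was -0.55 in WT and -0.54 in cells labelled Bach2 KO. At least 2-fold lower were 9 and 11 genes, against 13.5% and 13% of all genes. In each genotype 2 were at least 2-fold higher, against 13.2% and 12.4%. Under median scaling 20 and 16 were lower, against 21.5% and 19.3% of all genes, and 1 was higher in each. Cd3e scaling left 5 and 8 lower, against 8.02% and 8.42%, and 4 and 2 higher. Among the lower ones were Clspn, which couples the fork to the checkpoint (-1.54 and -1.87), Top2a, a topoisomerase that untangles copied DNA (-1.46 and -1.76), and Dck, which salvages deoxynucleosides (-1.18 and -1.89). The higher ones were Top1, the topoisomerase that relaxes supercoils ahead of forks and of transcription (2.003 and 1.863), and Ctps, which makes CTP (1.09 and 1.16). Both genes thus stood apart from the listed members, none of which was 2-fold higher. The 12 E2f partners and pocket proteins had medians of -0.21 in WT and -0.45 in cells labelled Bach2 KO. At least 2-fold lower were 2 and 3 of them (16.7% and 25%), and 1 was higher in each genotype. Over all genes the shares were 13.5% and 13% lower and 13.2% and 12.4% higher. Median scaling made the lower counts 3 and 3, and Cd3e scaling 0 and 2. E2f5 was the higher one (1.82 and 2.01), while Rb1 (-1.18 and -1.70) and Rbl2 (-1.04 and -1.07) were lower in both genotypes. Rbl1 was past 2-fold in cells labelled Bach2 KO alone, at -0.73 in WT and -1.60 there.

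Mitosis genes served as a second part of the cell cycle, and 18 of 19 were read. On re-stimulation their median was -0.98 in WT and -1.31 in cells labelled Bach2 KO. At least 2-fold lower were 9 and 14 of the 18, against 13.5% and 13% of all genes. Scaling to the median made these counts 16 and 16, against 21.5% and 19.3% of all genes. Scaling to Cd3e made them 4 and 11, against 8.02% and 8.42%. Between the genotypes all 18 were below 0 in both states, with medians of -0.42 before and -0.75 after, and with scaling to Cd3e 17 and 18 were. The replication genes, by comparison, had medians of -0.04 and -0.11. Nusap1, a spindle microtubule protein, had genotype differences of -0.495 and -1.395, and Mki67, the proliferation marker, of -0.39 and -0.75. Ccna2, the cyclin of S phase and G2, was at -0.61 and -1.04 and so nearer to the mitosis genes than to Ccne1 (0.32 and 0.55). The difference between the lists was not tested.

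**Figure D4:**
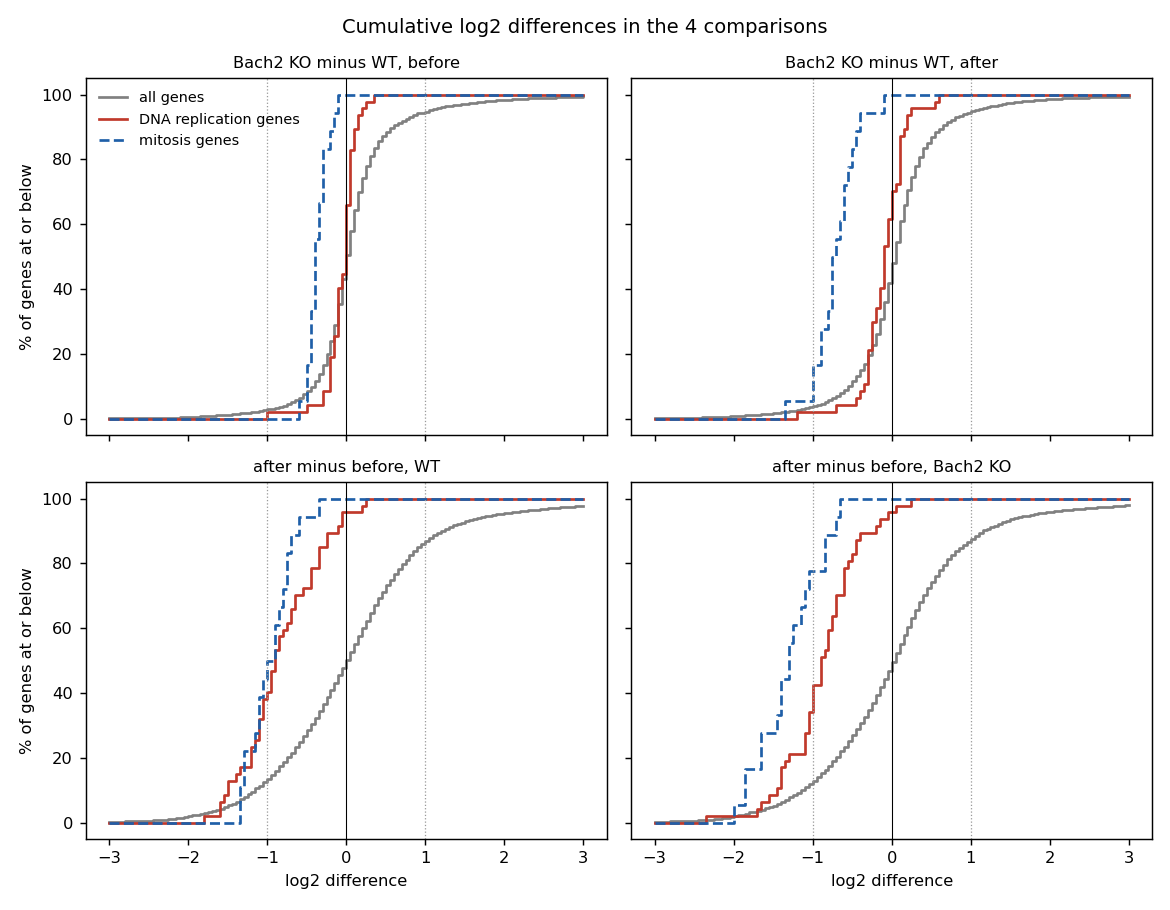
Cumulative percentage of genes (y axis) at or below each log2 difference (x axis, drawn from -3 to 3) for the replication genes, the mitosis genes and all genes measured, in each of the 4 comparisons, with dotted lines at a 2-fold difference. The replication genes lie near all genes between the genotypes and to their left on re-stimulation, while the mitosis genes lie to the left in all 4 panels.

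Members with an E2F match had a median log2 difference on re-stimulation of -1.06 in WT and -1.09 in cells labelled Bach2 KO, with 10 of 17 at least 2-fold lower in each. The 22 read members with a promoter but no match had medians of -0.76 and -0.80, with 8 at least 2-fold lower in each. Over all measured genes the corresponding medians were -0.21 and -0.24 with a match (464 genes, of which 75 and 71 were at least 2-fold lower) and -0.01 and 0.00 (0.004) without one (9921 genes, of which 1257 and 1204 were). Other motifs split the members as well. With a GC box (GGGCGG) the medians of 31 members were -1.06 and -1.02, with 17 and 16 at least 2-fold lower. Those of the 8 without one were -0.45 and -0.58, with 1 and 2. Over all measured genes the medians were -0.095 and -0.059 with a GC box (6760 genes, 962 and 907 at least 2-fold lower). Without one they were 0.131 and 0.094 (3625 genes, 370 and 368). With a CCAAT box the members' medians were -0.90 and -0.91 over 24 members and -1.06 and -1.02 over the 15 without one. The genes with a match ranged in response from E2f2 and Cdc6 to Mcm5 and E2f3. Of the 24 matches in the members, 10 lay from the start onwards, and none overlapped a GC box. Other motifs were also counted on both strands. The CCAAT box (CCAAT) was in 63.4% of member promoters, against 41.1% of all and 42.9% of measured genes. The GC box was in 80.5%, against 38.2% and 65.1%, and the cell cycle homology region (TTTGAA) in 22%, against 20.2% and 14.5%. The 9 read members with this region had medians on re-stimulation of -0.89 and -0.76, and the 30 without it -0.96 and -0.97. The AP-1 site (TGACTCA), a motif of the basic leucine zipper family, was in 0 of 41, against 5.95% and 4.78%, which says only that these letters were not in this window.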

How the data were processed

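RNA of 4 Th cell samples was hybridised to one-colour Agilent arrays. Per the file headers, the authors deposited scanner output of Agilent Feature Extraction (10.7 in the submitters' processing notes), whose processed intensity per spot is background-corrected and in linear units. The deposited value table holds log2 values per probe. They matched the scaled scanner values within 0.01 for 41001 to 41026 of 41173 probes, and served as an alternative.

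Control spots and 107 to 120 outlier spots per array were left out, and spots of a probe were averaged. Each array's 75th percentile of log2 intensity was subtracted from its values. Probes were named by transcript accession through RefSeq (GRCm38.p6, names only), which matched 27479 of 41173 probes (66.74%) and 18749 genes. The brightest probe stood for its gene, with 36 of 47 members read from 1 probe. A gene was measured where at least 1 array of a comparison was well above background (53.55% to 53.96% of probes per array). The dimmer side was raised to the array's lowest signal well above background. With 1 array per group, calls followed a 2-fold rule, with no test and no batch to compare. All arrays were on 1 slide.

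The members and lists were chosen with earlier results of these data known. Named were members past 2-fold in a comparison and those with the largest and smallest range over the arrays in each role group. Others are named where a limit or a count turned on them, chosen after their values were seen. Alternatives were scaling to the median, to the Cd3e probe or to probes detected on all arrays, quantile normalization, normexp (limma 3.58.1, R 4.3.3), the deposited log2 values, the mean over probes, stricter and absent filters, a 1.5-fold rule and the shorter promoter window. Python 3.11.15, numpy 2.4.6 and pandas 2.3.3 were used, and the steps were checked on simulated data. The number of arrays limits the precision.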

Additional observations from a re-analysis of the deposited data

How the results depend on the processing

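A value was called where it was larger than the median SD between probes of a gene (0.088 to 0.151 by comparison), a called value that changed sign counted as reversed, and a value counted as moved where it shifted by more than that SD (counts by more than 1.5 times). The list medians, the counts and the promoter share gave 117 values under the alternatives, of which 101 stayed near their value and 16 moved. None reversed in this sense, although 1 median too small to be called changed sign. Only a called median could reverse, since counts and the promoter share could only stay or move. Of 1080 values of the 30 members named by the rule of 2-fold or range, 919 stayed near their value, 156 moved and 5 reversed. Members named for other reasons, such as E2f3, Ccne1, Pcna and Gins4, were not among them. Reversals outside the 30 were therefore not counted, although E2f3 was below 0 on re-stimulation with the arrays scaled to their medians. At any size 40 changed sign, these 5 included. Part of the values that stayed could not have moved. The stricter and absent filters could not change a member's value, since all 47 were well above background on every array. The mean over probes could not change members read from 1 probe. The deposited log2 values were nearly the same values as the scaled ones. No paired analysis was possible because each condition had 1 array. Scaling to the array median gave members' medians on re-stimulation of -1.23 in WT and -1.18 in cells labelled Bach2 KO, with 31 and 31 members at least 2-fold lower, against 21.5% and 19.3% of all genes. Scaling to Cd3e gave -0.63 (-0.634) and -0.66, with 8 and 10 members at least 2-fold lower, against 8.02% and 8.42% of all genes. It also moved the genotype median before re-stimulation from -0.04 to 0.10, with 0 members 2-fold lower, and quantile normalization after normexp gave 0 there too, so Prim2 was past 2-fold in that state only under the other settings. A 1.5-fold rule counted 33 members lower in WT and 37 in cells labelled Bach2 KO on re-stimulation, against 25.4% and 23.9% of all genes. After re-stimulation it counted 1 member higher and 2 lower in cells labelled Bach2 KO than in WT, against 10.8% and 9.17%. The promoter share with an E2F motif was 26.8% before the start alone. Among the 30, scaling to Cd3e reversed the genotype differences before re-stimulation of Mcm7 (0.015) and Prim1 (0.02). It also reversed the responses of Mcm10 (0.079) and Rfc3 (0.019) in cells labelled Bach2 KO. With the array median the response of Ccne2 in WT (-0.13) was reversed. Scaling to Cd3e or to the median moves all genes of an array together. Signal over background did not limit the members, all of which were well above background.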
